A study of Homo sapiens with 8 samples.

Results

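Heat shock proteins of the cytosol and of the mitochondrial matrix keep other proteins folded. The genes described here are 10 chosen by symbol: HSPA1A and HSPA1B (the stress-inducible HSP70 proteins), HSPA8 (the constitutive HSP70, HSC70), HSPH1 (HSP110), HSP90AA1 and HSP90AB1 (the inducible and the constitutive cytosolic HSP90), DNAJB1 and DNAJA1 (HSP40 cochaperones), and HSPD1 and HSPE1 (the mitochondrial chaperonins HSP60 and HSP10). Of these 10, 8 have a probe set of that symbol among the 21448 probe sets of the array, 1 probe set for each. HSPA1B and HSPA8 have none in the annotation used, so their expression was not analysed here and only their upstream sequences were read. HSPA1A and HSPA1B are nearly identical genes, so the value given for HSPA1A may hold signal of both.

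Cells exposed to heat, unfolded protein or other stress release the transcription factor HSF1 from its chaperone partners. HSF1 then binds repeated heat shock elements in front of chaperone genes. HSPA1A, DNAJB1 and HSPH1 are known as strongly inducible targets, whereas HSP90AB1, HSPD1 and HSPE1 are made in quantity in growing cells. HSP70 holds unfolded chains, J-domain proteins such as DNAJB1 deliver clients and drive its ATPase, HSPH1 exchanges its nucleotide, and HSP90 matures clients such as kinases.

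The cells were CCRF-CEM, an established human line of T-cell acute lymphoblastic leukaemia (T-ALL). All groups were held for 1 h in a gel of bovine type I collagen at 1.7 mg/mL. There were 4 untreated samples and 4 pretreated for 1 h with 1 µM OICR-9429, a small molecule that binds the chromatin adaptor WDR5. The titles number the samples 1 to 4 in each group and call them biological replicates. The labels do not say what sets the numbers apart, nor do they mention a solvent control or culture outside the gel. All samples are of 1 cell line. The p-values therefore measure only the spread between these samples, which may be technical.

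Values are log2 expression per probe set (RMA), so a difference of 1 is 2-fold. Array medians ran from 6.38 to 6.46. Of the T-lineage transcripts, CD3E lay at or above the 99.0th percentile on each array. CD3D lay at or above the 97.6th and LCK at or above the 92.8th. The means of CD2 (6.50), CD1A (6.78), CD1B (6.69) and PTCRA (6.08) lay near the array median, while that of CD1E was 9.42. These CD1 genes were highest at number 3 and lowest at number 4 (8.30 and 5.53 for CD1A, 11.075 and 7.67 for CD1E). Genes of other blood cells had means from 3.73 for MS4A1 and 3.79 for LYZ to 9.42 for CD79A, a B-cell receptor subunit. Several stood around or above the array median, among them CD68 (7.11), GATA1 (6.91), CSF1R (6.49), PF4 (6.46) and PAX5 (6.42). Arrays of number 4 stood apart, with 26.3% of all probe sets higher and 25.5% lower than the mean of the other numbers. The F test between numbers is therefore also given without them.

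The values of the heat shock genes differed between replicate numbers far more than between treatments. HSPA1A and DNAJB1 differed several-fold between numbers, low at number 1 and high at numbers 2 and 4. DNAJA1, HSPD1 and HSPE1 were lowest at number 4, and HSPH1 was highest at number 2. HSP90AA1 and HSP90AB1 varied least. In a model with number and treatment, 6 of 8 members passed limma's F test for any difference between numbers at an adjusted p under 0.05, where 50.3% of all probe sets did. Of probe sets with a mean level of 10 or more, where all measured members but HSPA1A lie, 65.2% passed. From 7 to 10, where HSPA1A lies (9.555), 74.9% did. The members' share is thus not far above that of probe sets of like level. Those 6 were HSPA1A, DNAJB1, HSPD1, DNAJA1, HSPE1 and HSPH1. Without number 4, 3 of 8 passed (HSPA1A, DNAJB1 and HSPH1), beside 13.9% of all probe sets. The share at like level was not examined without number 4.

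**Figure D1:**
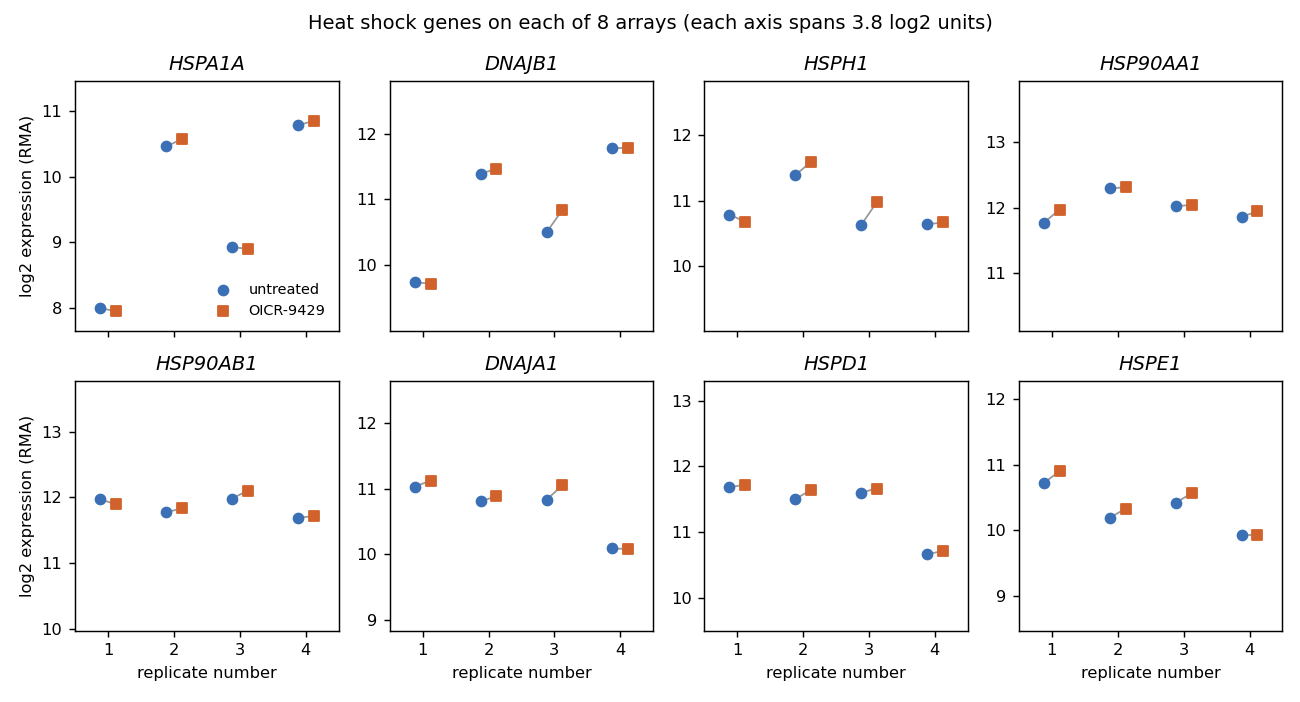
Log2 expression of the 8 measured heat shock genes on each array, by replicate number, with untreated cells as blue circles and cells given OICR-9429 as orange squares; grey lines join arrays of the same number. The points of a number lie close together, while HSPA1A ranges from 7.95 to 10.85 over the numbers.

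HSPA1A encodes the inducible HSP70. In untreated cells it measured 8.0, 10.46, 8.93 and 10.78 at numbers 1 to 4, and with OICR-9429 it measured 7.95, 10.57, 8.90 and 10.85. Numbers 2 and 4 were high and number 1 was low in both groups. The treated values ran from 7.95 to 10.85 and overlapped the untreated ones, which ran from 8.0 to 10.78. From number 1 to number 4 the means spanned 2.84 on the log2 scale, or 7.16-fold, and 111 of 21448 probe sets (0.518%) had a wider span (limma F test, adjusted p = 9.95e-05). In order of level the numbers stood 1, 3, 2 and 4. Number 3 exceeded number 1 by 0.94 ± 0.13 (SE; limma, adjusted p = 0.0168), and number 2 exceeded number 3 by 1.6 (adjusted p = 0.0032). Number 4 exceeded number 2 by 0.30, which did not pass (adjusted p = 0.10). With number 4 left out, number 2 still exceeded number 1 by 2.54 ± 0.14 (SE; adjusted p = 0.000472).

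DNAJB1, the J-domain partner of HSP70 that is induced with it, had the next widest span. It measured 9.74, 11.39, 10.50 and 11.78 in untreated cells and 9.72, 11.47, 10.84 and 11.78 with OICR-9429. Its order over numbers was the same as for HSPA1A, with number 1 lowest and number 4 highest in both groups. The means spanned 2.05 on the log2 scale, or 4.14-fold, and 2.96% of probe sets had a wider span (limma F test, adjusted p = 0.000224). Number 3 exceeded number 1 by 0.94 ± 0.15 (SE; adjusted p = 0.0254) and lay 0.76 below number 2 (adjusted p = 0.0359). The difference between numbers 4 and 2, 0.35, did not pass (adjusted p = 0.0855). Without number 4 the F test gave adjusted p = 0.00292 for DNAJB1 and 0.000741 for HSPA1A.

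HSPA6 was the gene with the profile nearest to that of HSPA1A. It encodes HSP70B′, an HSP70 known for being made almost only under stress. Likeness was measured as the root mean square (RMS), over the 8 arrays, of the difference between 2 profiles, each centred on its own mean. For HSPA6 and HSPA1A this was 0.131 log2 units, against a median of 1.17 over the 17686 genes compared, and 8 genes lay within 0.5. Profiles were not scaled, so a gene that hardly varies lies about as far away as the member's own spread. That median and count therefore largely reflect the wide span of HSPA1A and do not show how rare its pattern is. HSPA6 measured 5.88, 8.19, 6.35 and 8.58 in untreated cells at numbers 1 to 4, and 5.74, 8.35, 6.54 and 8.60 with OICR-9429. Number 1 was the lowest and number 4 the highest in both groups, and both arrays of number 1 were below the array median. Number 2 exceeded number 1 by 2.46 ± 0.15 (SE; limma, adjusted p = 0.0004) and number 3 by 1.83, while number 3 exceeded number 1 by 0.63 (adjusted p = 0.0802). HSPA6 shares sequence with HSPA1A, and whether probes of one read the other was not tested. Next in likeness to HSPA1A came ANKZF1, a factor of ribosome quality control (0.37), BHLHE40, a transcriptional repressor (0.376), P4HA2, a collagen prolyl hydroxylase (0.384), and DNAJB1 (0.419).

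**Figure D2:**
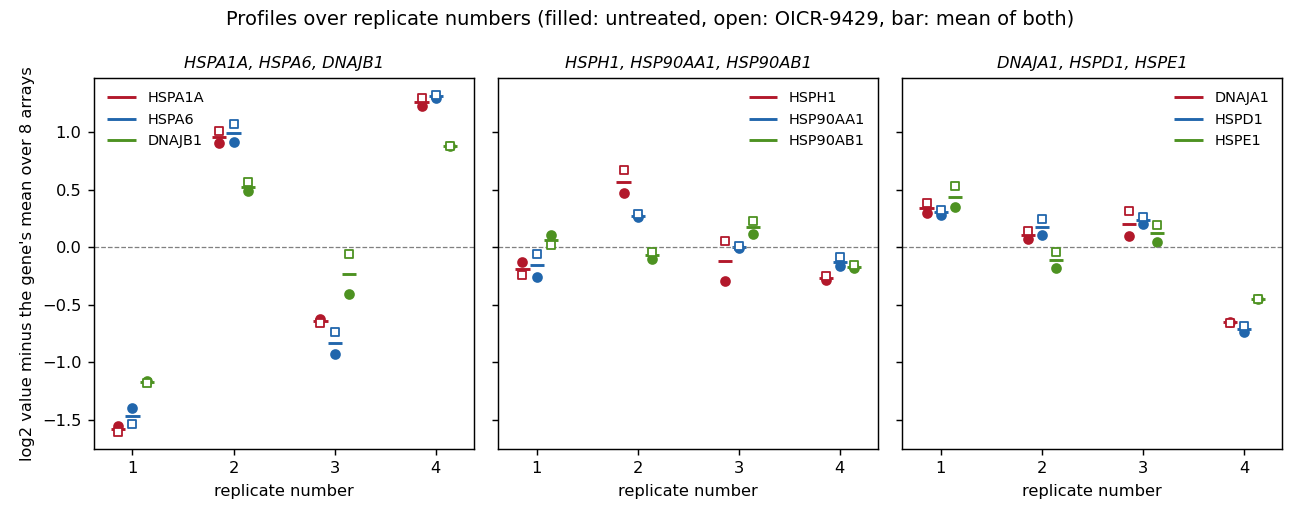
Log2 values of HSPA6 and the 8 measured heat shock genes minus each gene's mean over 8 arrays, by replicate number; filled circles are untreated, open squares OICR-9429 and bars the mean of both. HSPA1A, HSPA6 and DNAJB1 are low at number 1 and high at numbers 2 and 4, and DNAJA1, HSPD1 and HSPE1 are lowest at number 4.

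The genes nearest to DNAJB1 were POFUT4, a protein O-fucosyltransferase (RMS 0.123), ANKZF1 (0.232), LETMD1, a mitochondrial membrane protein (0.247), KLHL24, an adaptor of a ubiquitin ligase (0.257), and SLC2A3, the glucose transporter GLUT3 (0.262). POFUT4 measured 6.88, 8.54, 7.71 and 8.61 in untreated cells and 6.94, 8.69, 7.91 and 8.97 with OICR-9429. The median over all genes was 0.808, and 219 genes lay within 0.5 of DNAJB1. Both figures again largely reflect the span of DNAJB1, which is narrower than that of HSPA1A. Over numbers 1 to 3 alone, 1 of the 5 genes nearest to HSPA1A and 2 of the 5 nearest to DNAJB1 remained among the 5 nearest. HSPA6 was then second for HSPA1A (RMS 0.147), and POFUT4 remained the nearest to DNAJB1 (RMS 0.0546). These rankings describe 8 arrays that pair by number, and they carry no test.

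The sequences before the starts of these 3 genes are shown because their values were high and low on the same arrays. They are the 250 bases upstream of the start in RefSeq (GRCh38.p14), 5′ to 3′ on the gene's strand: HSPA1A at chr6:31815293-31815542 on the plus strand, HSPA6 at chr1:161524290-161524539 on the plus strand, and DNAJB1 at chr19:14518398-14518647 on the minus strand. Of 3 DNAJB1 windows in the table the one with the most matches is given. Capitals mark matches to 2 units of the heat shock element, GAANNTTC or TTCNNGAA, each of which reads the same on both strands and which overlap where 3 units follow one another.
HSPA1A: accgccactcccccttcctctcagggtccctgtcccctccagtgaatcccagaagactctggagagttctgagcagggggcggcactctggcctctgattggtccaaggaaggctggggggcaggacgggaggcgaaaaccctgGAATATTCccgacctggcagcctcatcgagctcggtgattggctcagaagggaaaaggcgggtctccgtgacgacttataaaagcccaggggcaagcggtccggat
HSPA6: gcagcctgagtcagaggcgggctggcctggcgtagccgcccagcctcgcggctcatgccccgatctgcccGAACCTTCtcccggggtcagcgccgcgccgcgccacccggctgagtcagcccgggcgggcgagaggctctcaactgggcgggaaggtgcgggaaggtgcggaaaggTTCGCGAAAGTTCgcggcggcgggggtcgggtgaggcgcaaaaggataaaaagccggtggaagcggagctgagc
DNAJB1: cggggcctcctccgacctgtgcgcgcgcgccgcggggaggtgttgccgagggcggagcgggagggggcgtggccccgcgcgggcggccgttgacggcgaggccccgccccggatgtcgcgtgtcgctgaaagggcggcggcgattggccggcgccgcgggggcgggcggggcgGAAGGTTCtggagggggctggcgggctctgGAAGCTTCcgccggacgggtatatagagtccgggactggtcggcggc

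HSPA1A holds 1 match of 2 units, DNAJB1 holds 2 and HSPA6 holds 3, of which 2 overlap as a run of 3 units. Of the 10 heat shock genes, 8 have a 2-unit match in at least 1 window, and HSPH1 and HSPE1 have none. In all genes of the table the share is 14%. A run of 3 units (GAANNTTCNNGAA or TTCNNGAANNTTC) is found for HSPA8, HSP90AA1, HSP90AB1 and HSPD1, which is 4 of 10 genes, against 0.557% of all genes. HSPA1A and DNAJB1, the members of widest span, have no run of 3 units in these windows. The members were chosen as heat shock genes, a match is a stretch of letters and not a bound site, and no match says only that these letters are not in the window. The upstream windows of HSPA1A and HSPA1B were identical at 235 of 251 aligned positions (93.6%).

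HSPH1, the HSP110 nucleotide exchange factor of HSP70, followed another order. It measured 10.79, 11.39, 10.63 and 10.64 in untreated cells and 10.68, 11.59, 10.98 and 10.67 with OICR-9429. Number 2 was highest in both groups, and the other numbers lay close together. It exceeded number 1 by 0.76 ± 0.16 (SE; limma, adjusted p = 0.0176), and number 4 lay 0.83 below it (adjusted p = 0.00302). Number 3 lay 0.69 below number 2 (adjusted p = 0.0508), and no comparison among numbers 1, 3 and 4 passed. Without number 2 the F test for HSPH1 gave adjusted p = 0.717.

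HSP90AA1, the inducible cytosolic HSP90, was also highest at number 2, with a narrow span. It measured 11.77, 12.29, 12.02 and 11.86 in untreated cells and 11.97, 12.31, 12.04 and 11.94 with OICR-9429. The means spanned 0.43, and 70.1% of probe sets had a wider span. It did not pass the F test (adjusted p = 0.0804), although number 4 lay 0.40 below number 2 (adjusted p = 0.0396).

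HSP90AB1, the constitutive cytosolic HSP90, had the narrowest span of the 8. It measured 11.97, 11.77, 11.98 and 11.69 in untreated cells and 11.89, 11.83, 12.10 and 11.71 with OICR-9429. The means spanned 0.34, and 80.5% of probe sets had a wider span (limma F test, adjusted p = 0.199). In none of the 6 comparisons between 2 numbers did it pass. Both HSP90 probe sets lay at or above the 99.0th percentile of each array, and whether their signal was near the top of what the array can measure was not examined.

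DNAJA1, HSPD1 and HSPE1 had in common that number 4 was lowest. DNAJA1, a J-domain cochaperone of HSC70, measured 11.03, 10.81, 10.83 and 10.09 in untreated cells and 11.12, 10.88, 11.05 and 10.08 with OICR-9429. HSPD1, which forms the HSP60 ring, measured 11.68, 11.50, 11.60 and 10.66, and 11.72, 11.64, 11.66 and 10.71 with OICR-9429. HSPE1, which forms the HSP10 lid of that ring, measured 10.72, 10.19, 10.42 and 9.92, and 10.90, 10.33, 10.56 and 9.92 with OICR-9429. In all 3 genes both arrays of number 4 lay below all other arrays.

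Number 4 lay 0.99 below number 1 for DNAJA1 (limma, adjusted p = 0.000905), 1.02 below it for HSPD1 (adjusted p = 0.000693) and 0.89 below it for HSPE1 (adjusted p = 0.00135). The profiles of DNAJA1 and HSPD1 differed by an RMS of 0.0691, the smallest between any 2 members. Among numbers 1, 2 and 3, 0 of the 3 comparisons passed for DNAJA1 and for HSPD1. For HSPE1 number 2 lay 0.55 below number 1 (adjusted p = 0.0315). With number 4 left out the F test gave adjusted p = 0.482 for DNAJA1, 0.766 for HSPD1 and 0.0669 for HSPE1, so none of the 3 then passed. The difference of HSPE1 between numbers 2 and 1 still passed without number 4 (limma, adjusted p = 0.0314).

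HSPD1 and HSPE1 lie head to head and are transcribed in opposite directions. The stretch between their starts in RefSeq is shown because it is upstream of both genes. It covers 104 bases at chr2:197500275-197500378 (GRCh38.p14), written on the plus strand, the strand of HSPE1, and no letters are in capitals because neither 2-unit pattern occurs in it.
HSPE1-HSPD1: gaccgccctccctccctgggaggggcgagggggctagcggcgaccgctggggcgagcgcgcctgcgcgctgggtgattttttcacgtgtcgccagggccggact
HSPD1 has a second RefSeq start, and the window before that start holds 3 of the 2-unit matches, the nearest ending 228 bases before it. HSPE1 was lower at number 2 than at number 1, and HSPD1 did not pass there; the difference between the genes was not tested.

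Counted by pairs of numbers, 4 of 8 members differed between numbers 2 and 1 (3 higher at number 2, 1 lower), beside 14.9% of all probe sets. Numbers 3 and 1 differed in 2 of 8, HSPA1A and DNAJB1 (1.79% of all), and numbers 3 and 2 in the same 2 genes (4.4% of all). Between numbers 4 and 1, 5 of 8 differed (44.5% of all), between 4 and 2, 4 of 8 (47.8%), and between 4 and 3, 5 of 8 (39.7%). Shares at number 4 were thus near or not far above those of the whole array, while HSPA1A and DNAJB1 differed in comparisons where few probe sets did.

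Against the mean of the other numbers, number 1 had 3 members higher (HSPE1, DNAJA1 and HSPD1) and 2 lower (HSPA1A and DNAJB1), beside 10.6% and 6.14% of all probe sets. Number 2 had 4 higher (HSPA1A, HSPH1, DNAJB1 and HSP90AA1) and 0 lower, beside 15.4% and 11.6%. Number 3 had 0 higher and 1 lower (HSPA1A), beside 1.18% and 0.2%. Number 4 had 2 higher (HSPA1A and DNAJB1) and 4 lower (HSPD1, DNAJA1, HSPE1 and HSPH1), beside 26.3% and 25.5%. Without number 4, number 1 had 0 members higher, number 2 had 3 higher, with HSP90AA1 no longer passing (0.35), and number 3 had 0 lower.

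Other values moved with the numbers. Among 1369 probe sets with a mean level of 10 or more, the median difference of number 4 from the other numbers was -0.15, and 38.7% were called lower, while the members' median was -0.29. A list named for handling response, with genes such as JUN and EGR1, was read as well. Whether handling differed between numbers was not tested. Of its 10 measured genes, 8 were lower at number 1, and 9 were higher and 1 lower at number 4. Their mean levels were 6.78, 7.65, 8.35 and 8.49 at numbers 1 to 4, and over arrays they ranged from 6.73 to 8.39 in untreated and from 6.83 to 8.61 in treated cells. Of these genes FOS, JUN, ATF3 and DUSP1 are also in the list of heat-response genes. The means of the handling-response genes and those of HSPA1A were both lowest at number 1 and highest at number 4. Numbers 2 and 3 stood in the opposite order. Of the markers of other cells, number 4 had higher values for 3 of 5 myeloid, 1 of 3 B-cell, 1 of 4 erythroid and megakaryocyte and 2 of 7 fibroblast and epithelial genes, beside 26.3% of all probe sets. It had lower values for 1 B-cell gene (MS4A1) and 1 epithelial gene (EPCAM). The array means of the myeloid list ran from 5.53 to 6.26 in untreated and from 5.59 to 6.12 in treated cells. The part of these changes in the values of the heat shock genes was not tested.

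OICR-9429 did not change any of the 8 heat shock genes past the threshold. In limma's test of treatment 0 of 8 passed an adjusted p of 0.05, as did 0% of all probe sets. With the replicate number as a block, 0 of 8 passed, again beside 0%, and 0 of the 8 had an unadjusted p under 0.05, where 5.55% of all probe sets did. The untreated and treated values overlapped for all 8 measured members, and 0.737% of all probe sets had groups that did not overlap.

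The mean differences were small and above 0 for 8 of 8 members, from 0.03 for HSPA1A to 0.12 for HSPH1, with a median of 0.09. Over all probe sets the median was 0.005 and 51.1% lay above 0. Among bright probe sets, with a mean of 10 or more, 55.3% did. Among those with a mean from 7 to 10, where HSPA1A lies, 60.6% did, with a median of 0.03. Of 83 other chaperone and heat-response genes measured, 54 lay above 0 and 29 below. Within numbers, 24 of the 32 differences lay above 0, 6 below and 2 at 0, where 49.2% of such differences of all probe sets lay above 0. The members share arrays, so these 32 values are not independent. Leaving out one number at a time kept 7 or 8 of 8 means above 0, the exceptions being HSPA1A without number 2 (-0.0033) and 1 member at 0 without number 3.

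**Figure D3:**
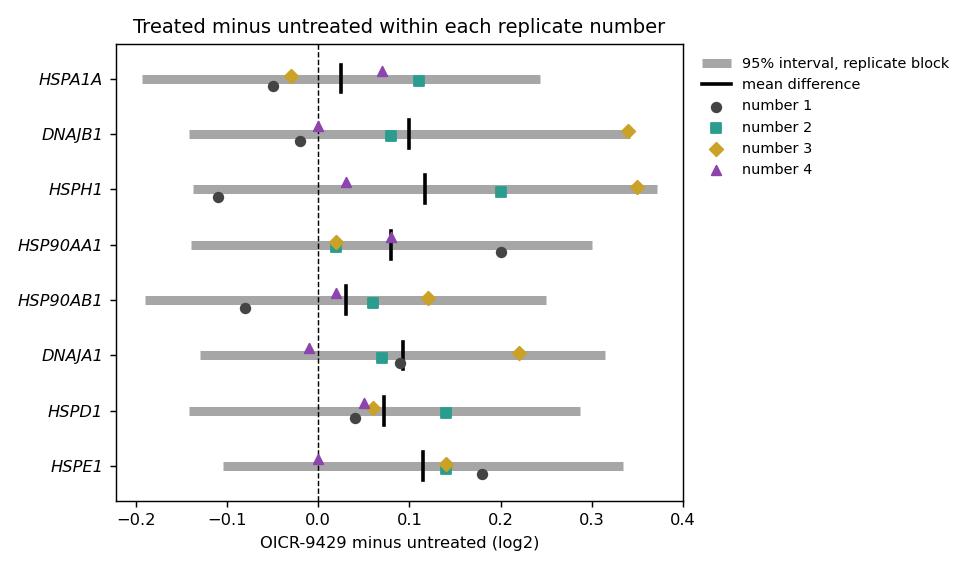
OICR-9429 minus untreated on the log2 scale for each heat shock gene, with 1 symbol per replicate number, a black tick for the mean and a grey bar for the 95% interval of the fit with the replicate block. All 8 intervals include 0, and single differences lie between -0.11 and 0.35.

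The mitochondrial pair had no difference below 0. HSPE1 with OICR-9429 differed from untreated by 0.18, 0.14, 0.14 and 0.00 at numbers 1 to 4, a mean of 0.12 with an SE of 0.25, or 0.095 with the replicate block (limma, adjusted p = 0.868). HSPD1 differed by 0.04, 0.14, 0.06 and 0.05, a mean of 0.07 (adjusted p = 0.909 with the block). All 4 differences were above 0 for HSPD1 and for HSP90AA1, which is 2 of 8 members, beside 5.94% of all probe sets. None of the 8 was below 0 in all 4 numbers, beside 6.62%.

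HSPA1A, DNAJB1 and HSPH1, the strongly inducible members, were all below 0 at number 1 and all above 0 at number 2. This did not set them apart, since the constitutive HSP90AB1 did the same (-0.08 and 0.06). At number 2, 8 of 8 members were above 0. HSPA1A differed by -0.05, 0.11, -0.03 and 0.07, a mean of 0.03 with a 95% interval from -0.19 to 0.24 in the block fit. DNAJB1 differed by -0.02, 0.08, 0.34 and 0.00 (mean 0.10, interval -0.14 to 0.34). HSPH1 differed by -0.11, 0.20, 0.35 and 0.03 (mean 0.12, interval -0.14 to 0.37), the widest of the 8 intervals. The interval for HSPA1A is narrow beside its span over numbers, 2.84.

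The remaining members lay between these. HSP90AA1 differed by 0.20, 0.02, 0.02 and 0.08, and HSP90AB1 by -0.08, 0.06, 0.12 and 0.02. DNAJA1 differed by 0.09, 0.07, 0.22 and -0.01. The SE without the block ranged from 0.15 for HSP90AB1 to 0.77 for HSPA1A, since that fit counts the spread between numbers as error, and with the block from 0.093 to 0.11. Replicate number held 99.9% of the variance of HSPA1A over the 8 arrays and treatment held 0.0115%; for HSP90AA1 the shares were 90.7% and 5.04%.

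By number, 4 of 8 members were above 0 at number 1, 8 at number 2, 7 at number 3 and 5 at number 4. The median member difference was 0.01, 0.095, 0.13 and 0.025, while the median of all probe sets was -0.02, 0.01, 0 and 0.01. The medians were higher at numbers 2 and 3 than at numbers 1 and 4, although HSP90AA1 (0.20) and HSPE1 (0.18) had their largest differences at number 1.

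The wider chaperone system was read from 8 lists with 83 measured genes of 94. Of these, 65 passed the F test between numbers, beside 50.3% of all probe sets and 74.9% of those with a mean level from 7 to 10. Without number 4, 25 passed, where 13.9% of all probe sets did, and the share at like level was not examined. In the band of level from 7 to 10, with all numbers, 45% of probe sets were called lower at number 4 and 25.2% higher. At number 1 it was 6.98% lower and 21% higher, and at number 2 it was 20% lower and 26.9% higher. These shares, and 74.9% for the F test, are the background for the counts given list by list. None passed for treatment in limma, with or without the replicate block, and 3 had an unadjusted p under 0.05 with the block, where 5.55% of all probe sets did. Both measured genes of the HSF list passed the F test, with spans of 0.52 and 0.605. HSF1, the stress-responsive factor, measured 9.0, 8.76, 8.61 and 9.13 as means of numbers 1 to 4 (adjusted p = 0.0389), and HSBP1, which binds and restrains it, 9.71, 9.10, 9.65 and 9.35 (adjusted p = 0.0307). HSF2 had no probe set of that symbol here.

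Other HSP70 and HSP110 genes differed between numbers in 8 of 9, with 3 higher and 5 lower at number 4. Besides HSPA6, HSPA2, an HSP70 best known from testis, measured 4.81, 6.16, 6.08 and 7.12, so it too was lowest at number 1 and highest at number 4. HSPA4L, an HSP110-type protein, was highest at number 2 (7.78) and lowest at number 4 (4.13), and HSPA4 was lowest there at 8.88. With OICR-9429, HSPA4L differed by 0.37 ± 0.13 (SE, replicate block) and HSPA4 by 0.22, and neither passed (limma, adjusted p = 0.841 for both). The differences of HSPA4L were 0.11, 0.25, 0.30 and 0.81 at numbers 1 to 4. At number 4 it measured 3.73 untreated and 4.54 treated, below the lower quartiles of those arrays (4.69 and 4.68), so that difference is of low signals.

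J-domain genes differed between numbers in 14 of 17 measured, with 2 higher and 10 lower at number 4. DNAJC2, which works at the ribosome, stood at 9.26, 9.11, 8.78 and 6.76, and DNAJC10 and DNAJB11, both of the endoplasmic reticulum, fell to 6.45 and 8.02 at number 4. DNAJB4, a cytosolic relative of DNAJB1, was highest at number 2 (8.59) and lowest at number 4 (6.89), unlike DNAJB1. With OICR-9429 DNAJB4 differed by 0.25 and DNAJC10 by 0.21 in the block fit (adjusted p = 0.841 and 0.843).

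HSP70 cochaperones differed between numbers in 8 of 12, with 5 higher and 4 lower at number 4. BAG2 and BAG5, nucleotide exchange factors of the BAG family, were lowest there at 7.89 and 8.34, while HSPBP1, an exchange factor of another fold, was highest there (8.48) and lowest at number 2 (6.91). With OICR-9429 BAG4 differed by 0.22 and BAG5 by 0.17 (adjusted p = 0.841 and 0.841). HSP90 cochaperones differed in 7 of 9 measured. FKBP4, an immunophilin of steroid receptor complexes, was lowest at number 2 (9.16), CHORDC1 was highest there (11.20) and lowest at number 4 (9.64), and UNC45A, a myosin and HSP90 cochaperone, was highest at number 4 (8.4). FKBP4 and CHORDC1 differed by 0.13 and 0.11 with OICR-9429 (adjusted p = 0.857 and 0.892).

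Mitochondrial proteases and chaperones differed between numbers in 10 of 12, with 3 higher and 5 lower at number 4 and 4 lower at number 2. TRAP1, the mitochondrial HSP90, was lowest at number 2 (8.48, with 9.57 at number 1), as was the disaggregase CLPB (8.81). HTRA2, a protease of the intermembrane space, was highest at number 1 (10.00, and 9.08 to 9.18 elsewhere). Of those named for treatment, GRPEL1, the exchange factor of mitochondrial HSP70, differed by 0.18 and the protease YME1L1 by 0.15, and neither passed (adjusted p = 0.841 and 0.851 with the block).

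Subunits of the TRiC chaperonin and of prefoldin differed between numbers in 9 of 12 measured, with 6 higher at number 1 and 7 lower at number 4. Many of them had a mean level of 10 or more. There, 65.2% of probe sets passed the F test, 15.8% were higher at number 1 and 38.7% lower at number 4. CCT5 measured 11.39, 10.55, 11.12 and 10.36, CCT6A was lowest at number 4 (9.16), as was PFDN4 (8.45), and PFDN5 was highest there (11.19). With OICR-9429 CCT6A differed by 0.09 and PFDN5 by -0.13 (adjusted p = 0.905 and 0.864). In the remaining list of other genes known to respond to heat, 7 of 10 measured differed, with 7 lower at number 1 and 8 higher at number 4. JUN, a subunit of the transcription factor AP-1, measured 6.81, 8.73, 10.12 and 9.84. DUSP1, a MAP kinase phosphatase, was highest at number 4 (8.43), and RGS2, a regulator of G protein signalling, was highest at number 2 (8.25, with 5.64 at number 1). With OICR-9429 RGS2 differed by 0.34 and SERPINH1, the collagen chaperone HSP47, by -0.32, and neither passed (adjusted p = 0.841 for both). Each had the same sign in 4 of 4 numbers. They were named for the smallest p for treatment in this list, which favours a steady sign. Of all probe sets, 5.94% were above 0 in all 4 numbers and 6.62% below.

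**Figure D4:**
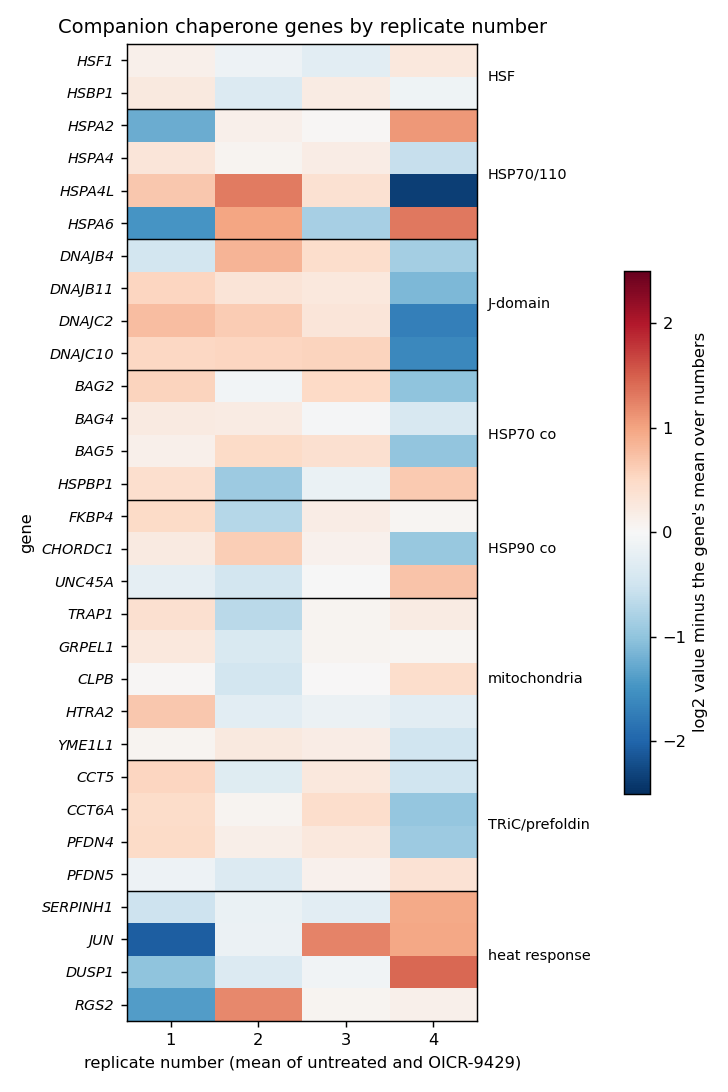
Mean log2 value of 30 chaperone and heat-response genes at each replicate number (both treatments averaged), minus the gene's mean over numbers; red is higher, blue lower, and black lines part the lists. HSPA6 is blue at numbers 1 and 3 and red at numbers 2 and 4, while HSPA4L, DNAJC2 and DNAJC10 are darkest blue at number 4.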

How the data were processed

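Gene expression was measured on 8 Affymetrix arrays of CCRF-CEM cells, 4 untreated and 4 given OICR-9429. The authors deposited log2 values per probe set; per the submitters' processing notes RMA and Transcriptome Analysis Console were used, with versions not given in the sources used here. A genome build for the array is likewise not given, so no probe set coordinates are printed. Precision is limited by there being 8 arrays.

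Gene symbols came from GEO's platform annotation and were updated by Entrez ID through a RefSeq table (GRCh38.p14); 17709 had 1 symbol, 0 several and 3739 none. A gene with several probe sets is represented by the one with the highest mean. limma 3.58.1 in R 4.3.3 (lmFit, eBayes, two-sided) was fitted to all 21448 probe sets, with treatment alone, and with number plus treatment for the replicate block and for differences between numbers. Benjamini-Hochberg adjustment covered the whole array, and calls needed an adjusted p under 0.05. SEs of the number comparisons come from the variation of the treatment difference among numbers (3 residual degrees of freedom before pooling), not on separate cultures. Fits were tested on simulated data.

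Numbers come from the titles. Deviations from group means correlated across probe sets at 0.696, 0.748, 0.566 and 0.865 between arrays of the same number, for numbers 1 to 4. The highest correlation of each untreated array with a treated array of another number was 0.212, 0.212, 0.216 and -0.374. The numbers therefore pair the samples. The limit set was 0.1, which some arrays of different numbers also exceeded. The members, lists and tests were chosen with earlier results of these data known. Named from each list were the 3 genes with the smallest p between numbers and the 2 with the smallest p for treatment in the block fit, and the 5 genes most like each of the 2 members of widest span. Comparisons between 2 numbers, and values without number 4 for likeness, were added after the data were seen. Promoter sequences are from RefSeq.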

Additional observations from a re-analysis of the deposited data

Results flagged for a closer look

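HSPD1 with OICR-9429 had 1 array far from the other 3: number 4 measured 10.71, and the others lay between 11.64 and 11.72. Its gap to the nearest array was 0.921 of the group's range, above Dixon's 95% limit for 4 samples. The untreated array of number 4 (10.66, with the others from 11.50 to 11.68) came to 0.824. This was 1 of 16 groups of 4 arrays examined, and chance gives about 1 in 20.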

How the results depend on the processing

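The treatment result kept 0 of 8 members past the threshold in each of 17 alternative settings (smallest adjusted p 0.704, limma), the replicate block (0 of 8) included, and that block changed no call. The sign of the unpaired mean difference was not stable when single arrays were left out: it turned in 19 such cases, with ranges of -0.49 to 0.56 for HSPA1A, -0.27 to 0.51 for DNAJB1, -0.0858 to 0.29 for HSPH1, -0.0017 to 0.18 for HSP90AA1, -0.0425 to 0.0875 for HSP90AB1, -0.11 to 0.33 for DNAJA1, -0.16 to 0.31 for HSPD1 and -0.0425 to 0.28 for HSPE1. Leaving out an unpaired array shifts the balance of numbers between groups. With the replicate block and without number 2, HSPA1A stood at -0.0033.

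The count of members that differed between numbers was 6, and 3 to 6 when 1 number was left out, with 3 without number 4. Without number 4 the companion count was 25, against 65. With quantile normalization number 1 had 1 member higher in place of 3. With only probe sets above the median level, number 3 had 1 higher in place of 0. With trend and robust variance, number 1 had 4 lower, and number 3 had 3 higher and 2 lower. Without number 4, number 1 had 0 higher and number 3 had 0 lower. The sign for HSP90AA1 at number 3 turned to -0.01 with median centring, to -0.0574 with quantile normalization and to -0.055 without number 4. Also without number 4, signs turned for DNAJA1 at number 2 (-0.16) and number 3 (-0.02), HSPD1 at number 2 (-0.095) and number 3 (-0.005), DNAJB1 at number 3 (0.09) and HSPE1 at number 3 (-0.045). These signs turned because number 4 was part of the mean compared against. Of the 5 genes nearest to HSPA1A, 1 was shared without number 4, and 2 for DNAJB1. Promoter matches covered 4 members with 3 units and 8 with 2. No member had a second probe set, so that alternative was not run. Signal over background was not examined.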
